A study of Mus musculus with 4 samples.

Results

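The interferon regulatory factors (IRFs) are a family of transcription factors that share an N-terminal DNA-binding domain and recognise elements built around GAAA. The genes described here were Irf1, Irf2, Irf3, Irf4, Irf5, Irf7, Irf8 and Irf9, 8 of the 26089 mouse genes with a curated RefSeq transcript on the 20 chromosomes used. Their SMAD4 peaks were those with a summit in the gene body or within 50 kb of a transcription start site (TSS), or within 100 kb for Irf8. A region was called shared where peaks of both libraries overlapped by at least 1 bp. By this rule 15 of the 10964 shared regions of the whole data set lay at the Irf genes, and 5 of the 8 genes had at least 1, beside 38.0% of all genes for the 50-kb rule.

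SMAD4 binding was profiled by HT-ChIPmentation, in which immunoprecipitated chromatin is tagged with sequencing adapters by a transposase. The cells were alveolar macrophages (AMs), which live on the airspace surface of the lung, obtained by lavage and flow sorting from wild-type C57BL/6J mice aged 9 weeks, with no treatment given, so that no genotype or treatment was compared. There were 2 SMAD4 libraries, here replicate 1 and replicate 2, and 2 input libraries, whose own files were not used here. Replicate 1 held 16369 peaks and replicate 2 held 19015, with medians of 17 and 14 fragments at the summit. These libraries measured no expression, so the cell label could not be checked against marker levels. All 7 alveolar macrophage genes listed for orientation (Siglecf, Itgax, Pparg, Car4, Chil3, Marco and Fabp4) had a shared SMAD4 region in the same 50-kb or gene-body window, beside 38.0% of all genes, although that of Fabp4 was nearest to Fabp12. This count does not check the cell label.

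SMAD4 is the common partner of the receptor-activated SMADs and carries the TGFβ signal to chromatin, a signal that AMs need for their development and upkeep. Within the IRF family, IRF8 and IRF4 are lineage factors of myeloid and lymphoid cells that often bind DNA together with PU.1 or with BATF-containing AP-1 dimers. IRF3, IRF7 and IRF5 act downstream of nucleic acid and Toll-like receptor sensing, and IRF9 is the DNA-binding part of the complex that answers type I interferon. IRF1 is a target and mediator of interferon γ, and IRF2 can compete with it for the same elements.

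The sequences below are 201 bases of the RefSeq GRCm38.p6 assembly (mm10), plus strand, centred on the mean of both summits. They cover 4 regions of the Irf8 locus, the stronger Irf1 region and 3 Irf2 regions in introns 1 and 6, chosen because they carry the strings to which the results return. Capitals mark matches, on either strand, to any of 13 short strings searched. A match is a description of the letters and not a mapped binding site.
Irf8 intron 2 (chr8:120741106-120741306): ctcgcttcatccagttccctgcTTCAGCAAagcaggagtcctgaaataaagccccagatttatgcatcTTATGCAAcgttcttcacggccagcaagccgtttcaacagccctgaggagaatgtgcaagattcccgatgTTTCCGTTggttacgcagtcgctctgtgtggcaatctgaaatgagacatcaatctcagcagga
Irf8, 50204 bp upstream (chr8:120686054-120686254): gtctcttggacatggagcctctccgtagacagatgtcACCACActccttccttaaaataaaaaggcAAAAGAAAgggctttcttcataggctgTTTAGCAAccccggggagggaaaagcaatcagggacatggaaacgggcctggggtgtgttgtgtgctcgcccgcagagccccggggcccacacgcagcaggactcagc
Irf8, 38439 bp upstream (chr8:120697819-120698019): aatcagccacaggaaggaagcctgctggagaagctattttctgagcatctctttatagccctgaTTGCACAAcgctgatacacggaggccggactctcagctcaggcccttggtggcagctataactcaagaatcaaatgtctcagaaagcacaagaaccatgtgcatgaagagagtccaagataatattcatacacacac
Irf8, 92324 bp upstream (chr8:120643934-120644134): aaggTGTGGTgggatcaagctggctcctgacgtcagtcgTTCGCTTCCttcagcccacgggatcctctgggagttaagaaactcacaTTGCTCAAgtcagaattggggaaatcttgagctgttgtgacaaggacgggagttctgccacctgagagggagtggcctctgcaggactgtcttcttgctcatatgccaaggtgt
Irf1, 12955 bp downstream (chr11:53783328-53783528): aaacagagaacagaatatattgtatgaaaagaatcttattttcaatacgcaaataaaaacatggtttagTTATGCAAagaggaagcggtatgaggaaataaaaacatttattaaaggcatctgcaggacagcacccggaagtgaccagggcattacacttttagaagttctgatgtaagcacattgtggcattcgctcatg
Irf2 intron 1, 38618 bp from the TSS (chr8:46778263-46778463): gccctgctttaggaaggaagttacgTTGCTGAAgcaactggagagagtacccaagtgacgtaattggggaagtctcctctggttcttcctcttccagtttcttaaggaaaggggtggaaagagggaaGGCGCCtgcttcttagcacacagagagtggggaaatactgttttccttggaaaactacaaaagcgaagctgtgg
Irf2 intron 1, 49905 bp from the TSS (chr8:46789550-46789750): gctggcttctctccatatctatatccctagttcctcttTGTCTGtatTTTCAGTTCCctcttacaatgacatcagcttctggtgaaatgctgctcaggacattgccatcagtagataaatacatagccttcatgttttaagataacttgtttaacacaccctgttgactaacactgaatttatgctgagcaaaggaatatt
Irf2 intron 6 (chr8:46828772-46828972): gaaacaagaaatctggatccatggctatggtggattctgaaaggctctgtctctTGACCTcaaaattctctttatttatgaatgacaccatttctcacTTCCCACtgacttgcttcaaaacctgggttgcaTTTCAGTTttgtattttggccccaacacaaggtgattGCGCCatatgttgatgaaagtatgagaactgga

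Irf8 carried the strongest SMAD4 binding of the family, in its own body and at a cluster of regions upstream. The strongest region (chr8:120740724-120741766, 1043 bp) lay in intron 2 of 8 of NM_008320.4, with its summit 4848 bp downstream of the first TSS and 2567 bp downstream of the second. Fold enrichment, the number of fragments at the summit over the local control level with 1 added to each, was 23.1 in replicate 1 and 41.5 in replicate 2. These folds rested on 70 fragments (95% exact Poisson interval 54.6 to 88.4) and 91 fragments (73.3 to 112). The region ranked 254 of 16369 and 115 of 19015 in the respective lists, and the summits of both libraries were 2 bp apart. Both libraries therefore placed it near the top of the list, with the higher fold in replicate 2.

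The second strong Irf8 region (chr8:120685685-120686751, 1067 bp) was intergenic, 50204 bp upstream of the TSS. Its fold was 17.5 in replicate 1 and 37.5 in replicate 2, from 53 and 82 fragments, with ranks of 629 and 203. The counting intervals of the upstream region (39.7 to 69.3 and 65.2 to 102 fragments) overlapped those of the intronic region in each library, so their order was not resolved beyond counting error. No other region at an Irf gene exceeded 11.7-fold in replicate 1 or 15.8-fold in replicate 2. The intronic and the upstream region were the 2 of the 15 that fell in the top 10% of both lists, against 12.6% of all shared regions.

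Downstream of this upstream region, towards Irf8, lay a further pair. The region 44142 bp upstream of the TSS (chr8:120691935-120692704) had folds of 11.7 and 13.1, from 35 and 28 fragments, and 75.1% of its summit window was soft-masked repeat. The region 38439 bp upstream (chr8:120697699-120698027) was weaker, at 6.50 and 8.57, from 19 and 18 fragments. These upstream regions, 3 in all, spanned 12343 bp, between Cox4i1 and Irf8. Their nearest TSS was that of Cox4i1, a subunit gene of cytochrome c oxidase, 17834 to 29599 bp away, so a nearest-gene assignment would not give them to Irf8.

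The farthest Irf8 region (chr8:120643745-120644198), 92324 bp upstream, lay in an intron of Gm27021 with 1190005I06Rik as the nearest TSS, and had folds of 7.46 and 13.5. With all 5 regions Irf8 stood among the 8.23% of genes with at least 5 shared regions in the gene body or within 100 kb. A 50-kb window, as used for the other genes, left 3 regions, without the farthest and without the strong upstream region, whose summit lay 204 bp beyond the limit. From the end of the Irf8 gene to 100 kb past its first TSS, a stretch of 79664 bp, neither library had a peak. The Irf8 regions thus sat in and upstream of the gene. No peak covered the Irf8 promoter itself in either list. The 1 peak without a partner (chr8:120685443-120685561), of 8 fragments in replicate 2, stood 124 bp from the strong upstream region.

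**Figure D1:**
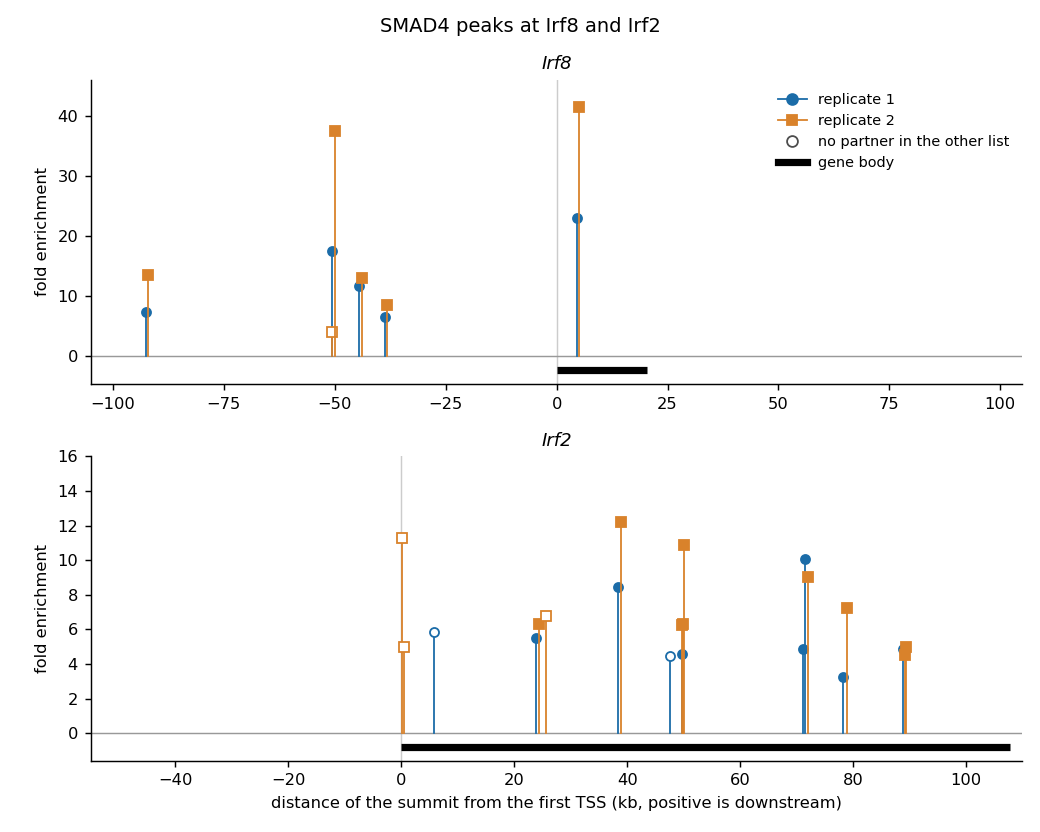
SMAD4 peaks at Irf8 (top) and Irf2 (bottom), with fold enrichment on the vertical axis and the distance of each summit from the first TSS in kb on the horizontal axis. Circles are replicate 1, squares replicate 2, open symbols peaks without a partner in the other list, and the black bar the gene body. Symbols of the 2 libraries are drawn slightly apart. The folds of 23.1 and 41.5 in the Irf8 body and of 17.5 and 37.5 upstream stand above all Irf2 peaks, which spread along the gene.

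Irf4, the close relative of Irf8, had no shared region in its window. Replicate 2 alone had a peak at its promoter (chr13:30749180-30749298), with the summit 2 bp from the TSS, a fold of 5.87 and 12 fragments. The closest shared region (chr13:30820013-30820519; 5.52 and 6.32) was 70960 bp downstream and still had Irf4 as its nearest TSS. A further pair of shared regions, 79668 and 99791 bp upstream, lay nearer to Dusp22, a phosphatase gene. In windows of the same 50 kb, Irf4 had 0 shared regions and Irf8 had 3. In a 100-kb window for every gene Irf4 would be counted among the genes with a region.

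Of the genes that act downstream of sensing (Irf3, Irf5 and Irf7), 1 of 3 had a shared region, beside 38.0% of all genes. Irf3, the constitutively expressed activator of the interferon β gene, had 1 shared region (chr7:45017583-45017908), with folds of 5.20 and 7.67 from 15 and 16 fragments. Its summit was 20133 bp from the Irf3 TSS but 161 bp upstream of the TSS of Rras, a small GTPase gene, so it was a promoter region of Rras. Replicate 2 also had an unshared peak of 10 fragments at the promoter of Prmt1, an arginine methyltransferase gene, within the Irf3 window.

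Irf7, the interferon-inducible amplifier of the type I response, had no peak in either library within 50 kb. Its closest shared region (chr7:141169928-141170181; 5.20 and 5.41) was 96310 bp away with Rnh1 nearest. Irf5, which acts in Toll-like receptor signalling, had no shared region and 1 unshared peak in replicate 2 (chr6:29524099-29524222; 4.96-fold, 10 fragments), 2433 bp upstream of its TSS. Its closest shared region (chr6:29467505-29467787; 6.50 and 8.12) was 58985 bp away at the promoter of Atp6v1f, a proton pump subunit gene. The fewest fragments behind any peak were 9 in replicate 1 and 7 in replicate 2, so sites with less coverage were not called.

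Irf2 had the most shared regions of the family, 6, all within its introns and all with Irf2 as the nearest TSS. Folds ranged from 3.25 to 10.1 in replicate 1 and from 4.96 to 12.2 in replicate 2. Only 1.82% of all genes had at least 6 shared regions in the same window. Irf2 is long, at 107714 bp, and of the 2430 genes of at least 100 kb 7.49% had that many, with a median of 0. The density was 3.80 regions per 100 kb of window at Irf2, 2.47 at Irf8, 1.99 at Irf1, 1.0 at Irf3, 0.994 at Irf9 and 0 at Irf4, Irf5 and Irf7. Over all 8 windows it was 1.56 per 100 kb, beside 0.428 over the whole genome, and in a window of about 100 kb a single region already gives about 1 per 100 kb. The genome value takes in sequence far from any gene, and no density over such windows of all genes is given here. The values 1.56 and 0.428 are therefore not like for like.

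The Irf2 regions lay along the gene in introns 1, 5 and 6 of 8 (NM_008391.4). The strongest by its smaller fold (chr8:46811138-46811758) was in intron 5, 71791 bp from the TSS, with folds of 10.1 and 9.02 from 30 and 19 fragments. It was the only 1 of the 15 regions with the higher fold in replicate 1, while 14 of 15, and 87.2% of all shared regions, were higher in replicate 2. The fold divides by the control level, which was 2.08 genome-wide in replicate 1 and 1.22 in replicate 2. Folds of the libraries are therefore not on 1 scale, and a higher fold in replicate 2 is not by itself stronger binding. The region in intron 1 at 38618 bp (chr8:46778142-46778595) followed, with 8.45 and 12.2 from 25 and 26 fragments. Their fragment counts were close to each other and did not separate the pair beyond counting error.

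The Irf2 region at 49905 bp (chr8:46789336-46790016) differed most between the libraries, with folds of 4.59 and 10.9 from 18 and 25 fragments. Its control level was 3.14 in replicate 1 and 1.39 in replicate 2, beside genome-wide levels of 2.08 and 1.22. The region at 78517 bp (chr8:46818036-46818433) had 15 fragments in each library but folds of 3.25 and 7.22, with a control level of 3.92 in replicate 1, and stood at percentile 1.37 of that list. In both regions replicate 1 had the lower fold and the higher control level, the latter as it had genome-wide. At 49905 bp the fragment counts differed as well. At 78517 bp the fragment counts were equal, so the folds differed through the control levels alone. The remaining regions, at 24059 bp (chr8:46763579-46763946; 5.52 and 6.32) and 89127 bp (chr8:46828586-46829046; 4.87 and 4.96), rested on 16 and 13 and on 14 and 10 fragments.

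At the Irf2 promoter a peak was called in replicate 2 alone. The peak there (chr8:46739466-46739860) had a fold of 11.3 from 24 fragments, the highest of any unshared peak at the Irf genes, with its summit 161 bp upstream of the Irf2 TSS and 69 bp from that of the divergent transcript Gm16675. A second peak of 10 fragments followed 237 bp downstream of the TSS. In replicate 1 the nearest Irf2 peak (5.85-fold, 17 fragments) was 6059 bp into the gene. The promoter peak had a fold between those of the 2 strongest shared Irf2 regions of its own list (12.2 and 10.9) but no counterpart in the other list.

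Irf1 had 2 shared regions, both downstream of the gene and both with Irf1 as the nearest TSS. The stronger (chr11:53783150-53783604) was intergenic, 12955 bp from the TSS, with folds of 7.47 and 15.8 from 22 and 34 fragments. The weaker (chr11:53805615-53806176) lay in an intron of Gm12216, 35455 bp from the TSS, with 6.17 and 9.02 from 18 and 19 fragments, and its summits were 216 bp apart, the widest gap among the 15 regions. Neither library had an unshared peak in the Irf1 window.

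Irf9 had 1 shared region (chr14:55577712-55578179), with folds of 7.80 and 11.7 from 23 and 25 fragments. It lay 25979 bp upstream of Irf9 but 488 bp from the TSS of Psme1, a proteasome activator gene induced by interferon γ, and so in the Psme1 promoter. Unshared peaks of replicate 2 stood at the promoter of Dcaf11 (9.48-fold, 20 fragments) and in an intron of Psme2 (7.67-fold, 16 fragments). A weak peak of each library near Dcaf11 (3.90-fold in replicate 1 and 5.87-fold in replicate 2) missed the other by 14 bp. Irf9 itself had no peak nearest to it.

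**Figure D2:**
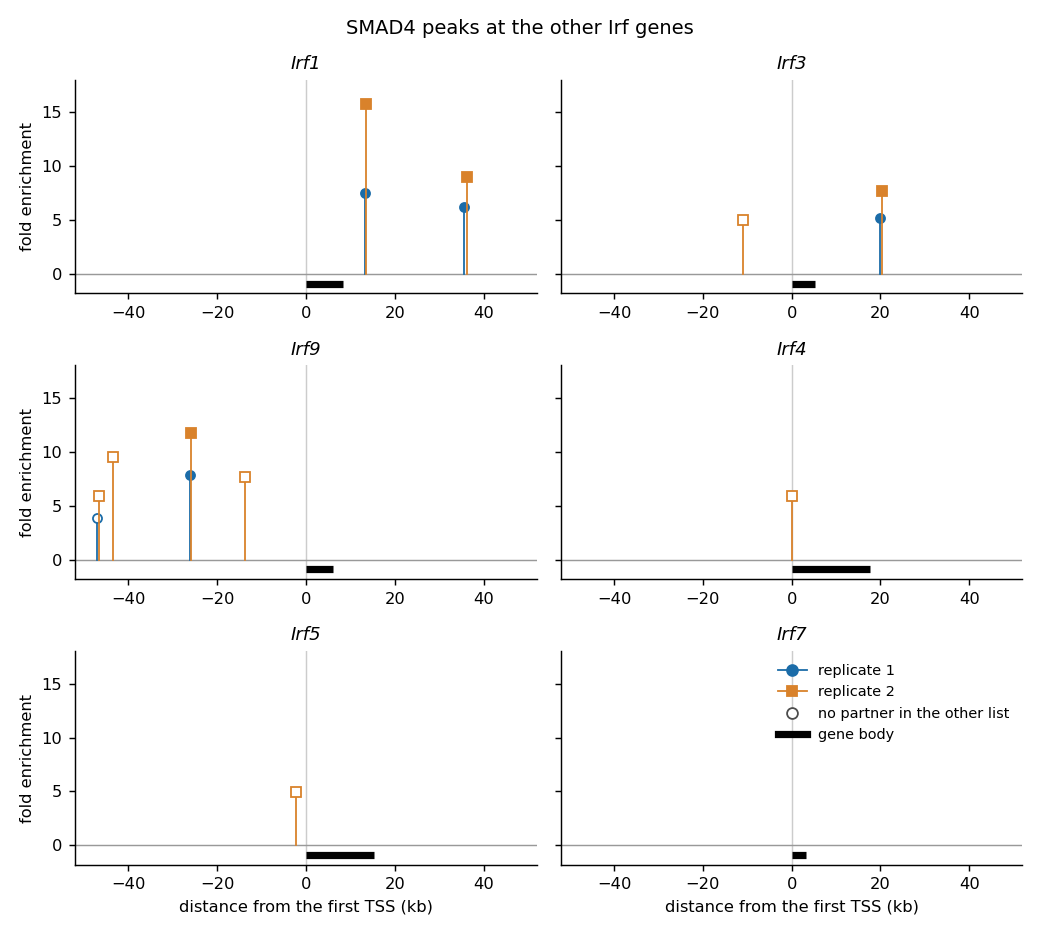
SMAD4 peaks at Irf1, Irf3, Irf9, Irf4, Irf5 and Irf7, drawn as fold enrichment against the distance of the summit from the first TSS in kb, with circles for replicate 1, squares for replicate 2, open symbols for peaks without a partner and a black bar for the gene body. Irf1 has 2 shared regions, Irf3 and Irf9 have 1 each, Irf4 and Irf5 show a single open symbol of replicate 2, and Irf7 is empty.

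Set beside the genome, a shared region in the gene body or within 50 kb was found at 38.0% of all genes, and within 100 kb at 53.8%. The 5 of 8 Irf genes with a region used the 100-kb window for Irf8, which keeps its call in the 50-kb window too. As nearest genes, only Irf1, Irf2 and Irf8 counted, 3 of 8, beside 20.9% of all genes that were nearest to at least 1 shared region. With 8 genes these shares are counts and no test was made of them. Of the 15 regions 9 were nearest to an Irf TSS and 6 to another gene.

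By position, 9 of the 15 regions were intronic, 4 intergenic and 2 in promoters, and both promoters belonged to neighbours, Rras and Psme1. Over all shared regions 49.3% were intronic, 40.5% intergenic and 6.42% in promoters. No Irf gene had a shared SMAD4 region at its own promoter. The share of all genes with such a region is not given here, so this absence stands without a comparison. The median fold of the 15 regions was 7.46 in replicate 1 and 10.9 in replicate 2, beside 6.82 and 9.48 over all shared regions. Their median width was 461 bp beside 440 bp, and their median GC content 46.8% beside 43.8%. The strong Irf8 pair stood at the top of the range and the weakest Irf2 region near its bottom.

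Of the peaks at the Irf genes, 16 of 19 in replicate 1 (84.2%) and 17 of 28 in replicate 2 (60.7%) had a partner, beside 69.4% and 59.2% of all peaks. The unshared Irf peaks had folds of 3.90 to 5.85 in replicate 1 (3 peaks) and 4.06 to 11.3 in replicate 2 (11 peaks). Of the 11 in replicate 2, 5 were at promoters, namely those of Irf2 (2 peaks), Irf4, Prmt1 and Dcaf11. The share over all unshared peaks of replicate 2 was 10.2%. That share is genome-wide and not from windows around genes, so the comparison is not like for like. None of the 3 unshared Irf peaks in replicate 1 was at a promoter. The promoter peaks of Irf2 and Irf4 therefore rest on replicate 2 alone.

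**Figure D3:**
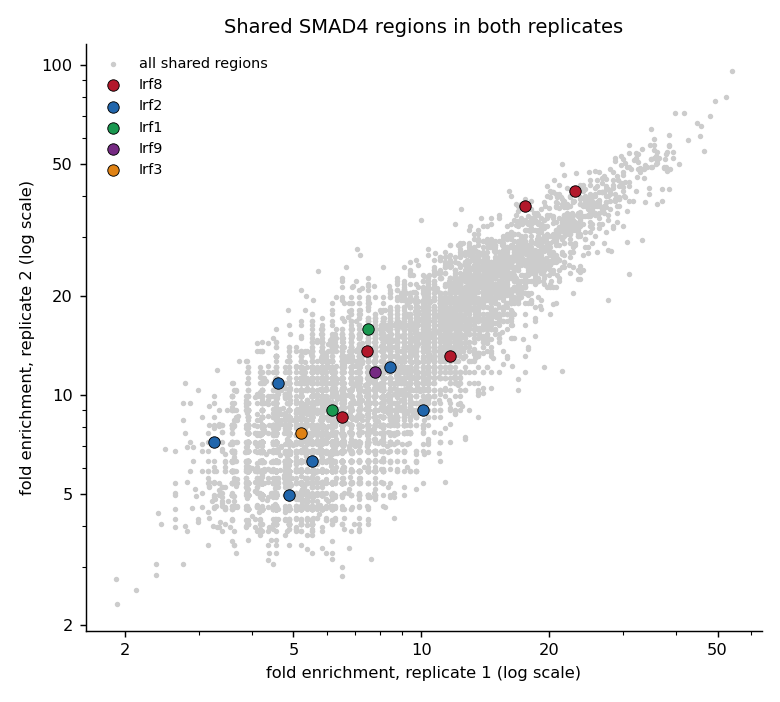
Fold enrichment in replicate 1 (horizontal) and replicate 2 (vertical), both on log scales, for all 10964 shared regions in grey and the 15 regions at the Irf genes in colour. The strong Irf8 pair lies at the upper right, at 23.1 and 41.5 and at 17.5 and 37.5, and the other 13 regions lie within the bulk of the grey points.

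The strings in the summit windows were read beside their share over all 10964 shared regions. The C/EBP string TTGCNNAA, recognised by a family of macrophage lineage factors, was in 10 of the 15 windows (66.7%), beside 40.8% of all. All 5 Irf8 windows held it, as did 3 of the 6 Irf2 windows, the stronger Irf1 window and the Irf3 window. Its median distance from the summit was 30.5 bp, beside 31.5 bp over all regions with it. In the strong upstream Irf8 window it read TTGCTAAA and lay 3.5 bp from the summit. The intronic Irf8 window held it as TTGCTGAA and TTGCATAA, the latter also the form in the Irf1 window, and the region 38439 bp upstream held TTGCACAA.

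The IRF core string AANNGAAA was in 5 of the 15 windows, beside 27.2% of all, in 3 Irf8 and 2 Irf2 regions. The strong intronic Irf8 window held AACGGAAA and the strong upstream window AAAAGAAA. The ETS–IRF composite type GGAANNGAA, whose letters can overlap the core string, was in 2 windows (8.52% of all). It read GGAACTGAA in the Irf2 region at 49905 bp, where it overlapped the core match AACTGAAA, and GGAAGCGAA in the farthest Irf8 region. The interferon-stimulated response type GAAANNGAA, which can also overlap the core string (8.64% of all), and the PU.1 string GAGGAAGT (8.01%) were in none of the 15. No match says only that these letters are absent from the window.

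Of the SMAD strings, CAGACA was in 2 Irf windows (19.0% of all), both in Irf2, and GGCGC in 2 (5.24% of all), both also in Irf2. In the intron 1 region at 38618 bp the GGCGC matches of both strands overlapped as GGCGCC, 29 and 30 bp from the summit. No Irf8 window held either SMAD string. The RUNX string TGTGGT was in 3 windows, all at Irf8 (26.4% of all). Its matches there lay 60.5, 69.5 and 93.5 bp from the summit, beside a median of 40.5 bp over all regions with it. With 50 bp each side of the summit 0 Irf windows held it. The RBPJ string GTGGGAA (4.14% of all) was in 1 window, the Irf2 intron 6 region, 1 bp from the summit. That window also held the nuclear receptor string AGGTCA (15.4% of all). The AP-1 string TGANTCA (12.3%) and the E-box CACGTG (3.65%) were both in the Irf2 intron 5 region at 71791 bp. The weaker Irf1 region and the Irf9 region held none of the 13 strings, as did 11.3% of all shared regions.

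**Figure D4:**
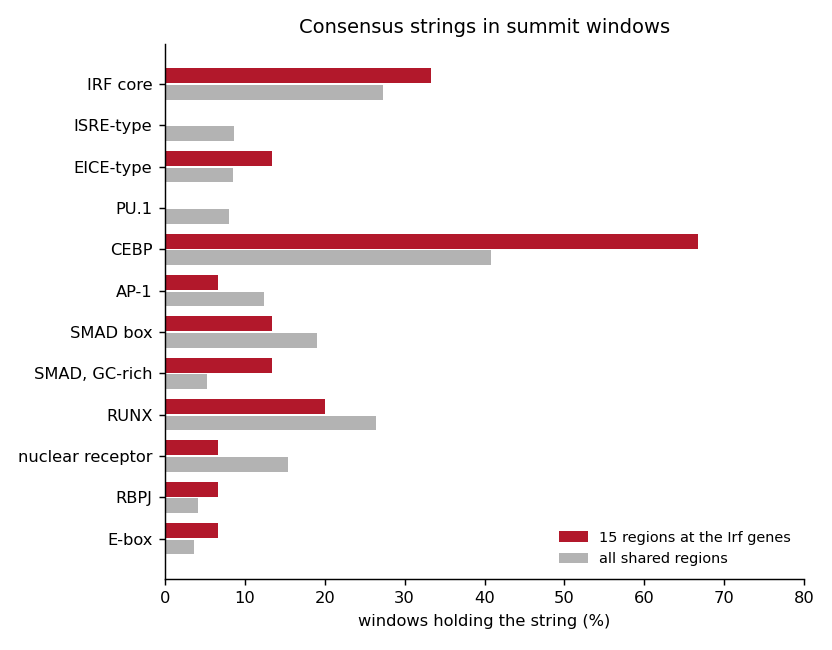
Percent of summit windows of 201 bp that held each string described here on either strand, for the 15 regions at the Irf genes in red and all 10964 shared regions in grey. The C/EBP string stands at 66.7% beside 40.8%. The interferon-stimulated response (ISRE) and PU.1 strings are absent from the Irf windows, beside 8.64% and 8.01% of all shared regions.

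The promoters of the Irf genes, 300 bases around each RefSeq start, were searched for the same strings. Of 11 promoters of the 8 genes, the interferon-stimulated response type was found at Irf2 alone (8.56% of 32851 mouse promoters). The C/EBP string was also found at Irf2 alone (10.8%). Replicate 2 had promoter peaks at both Irf2 and Irf4, and the Irf4 promoter held no C/EBP string. GGCGC was found at Irf1, Irf4, Irf5 and Irf8 (36.9%) and CAGACA at Irf4, Irf5 and Irf9 (21.0%). Irf7 held none of the strings named here. No shared SMAD4 region lay at any of these promoters, again without the share of all genes beside it.

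Genes that act with the IRFs were read with the same 50-kb or gene-body window, and 28 of 43 (65.1%) had a shared region, beside the 38.0% of all genes. Of the 43, 16 were also the nearest gene to a shared region in that window. The 20.9% of all genes counts regions at any distance, so the shares are not like for like. Among partners and cofactors 5 of 7 had a region. Irf2bp2, which encodes a corepressor that binds IRF2, had 5, the strongest with folds of 24.7 and 37.9, 2358 bp upstream of its TSS. Batf, an AP-1 partner of IRF4 and IRF8, had folds of 20.5 and 41.1 at a region 27133 bp upstream, and Batf3 14.9 and 20.3 at its strongest. These values were of the order of those at Irf8.

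Among receptors and JAK-STAT genes 7 of 9 had a shared region, beside 38.0% of all genes. Ifnar2, a chain of the type I interferon receptor, had folds of 17.6 and 25.5 at its strongest region. Ifnar1 and Ifngr2 are neighbours and shared 1 region (chr16:91522004-91523343; 17.5 and 31.6), whose nearest TSS was that of Mir6367. Of the sensors, adaptors and kinases upstream of IRF3 and IRF7, 7 of 10 had a region, beside the same 38.0%. Only 3 of the 10 were also nearest to one within the window, beside 20.9% of all genes at any distance. The strongest regions for the 10 genes were in the windows of Mavs (11.0 and 26.2) and Myd88 (10.1 and 12.2). They lay at the promoters of the neighbours Ap5s1 and Acaa1a. The kinase gene Tbk1 had folds of 7.47 and 10.8 in an intron.

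Ifnb1, the interferon β gene and a classical target of IRF3, had 1 region 14795 bp upstream (8.77 and 22.6), and Ifng had none. Among interferon-induced targets 8 of 15 had a region, beside 38.0% of all genes. Only 3 of the 15 were also nearest to one within the window, beside 20.9% of all genes at any distance. Cxcl10 led with folds of 12.0 and 19.0, at a region in an exon of its neighbour Cxcl9, followed by Ifitm3 with 8.77 and 17.6. Rsad2 (7.15 and 13.1) and Gbp2 (7.15 and 13.5) were level in replicate 1. At the strongest region of each gene named from these interferon lists replicate 2 had the higher fold, as at 87.2% of all shared regions.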

How the data were processed

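HT-ChIPmentation libraries for SMAD4 (2) and input (2) were made from alveolar macrophages. Per the labels and the study's methods, the authors trimmed reads with Cutadapt 1.7.1, aligned them to mm10 with Bowtie2, filtered them with samtools 0.1.18 and PICARD, and called peaks per sample with MACS3 3.0.0a5 against input at a q-value of 0.05. Which input served which sample was not given in the sources used here. The labels number no replicates, so the numbers follow accession order, and they do not say whether the libraries came from separate mice, so their spread may be technical. The deposited peak lists give per peak a score, the fold enrichment at the summit (a ratio), the −log10 p-value and −log10 q-value, and how far the summit lies from where the peak begins. The authors' fold and −log10 p-value were solved together for a whole number of fragments at the summit and the control level, with a largest deviation of 0.000516 in replicate 1 and 0.00054 in replicate 2 on the −log10 scale. Total read depth is not in these lists, and Poisson intervals cover counting error only.

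Peaks were placed on curated RefSeq transcripts of GRCm38.p6 (45657 transcripts) with Python 3.11.15, pandas 2.3.3, numpy 2.4.6 and scipy 1.17.1. Overlapping peaks of both lists were merged into shared regions. Promoters ran from 1 kb upstream to 100 bp downstream of a TSS. Strings were searched on both strands within 100 bp of the mean summit, and pairing, fragment recovery and string search were tested on simulated data. All 8 genes were named, with every shared region nearest to them and the strongest nearest to another TSS, and of each interferon list the 3 genes with the highest smaller fold. The members, lists and strings were chosen with earlier results of these data known. With 1 condition no test was run, and counts stand beside those of all genes or regions. The values of 1 searched string are not reported here.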

Additional observations from a re-analysis of the deposited data

How the results depend on the processing

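A window of 10 kb left 7 shared regions at 2 of the genes (Irf2 and Irf8), with 10 peaks in replicate 1 and 15 in replicate 2. Counting only those summits in the windows that were nearest to an Irf TSS gave 9 regions at 3 genes, with 12 and 16 peaks. Stricter pairing of the lists gave 11 regions in each of the settings tried. A 50% reciprocal overlap left them at 4 genes, and summits within 100 bp at 5 genes. With 100 kb for all, each of the 8 genes had a shared region, beside 53.8% of all genes. Counting the peaks of a single library gave 19 at 5 genes without replicate 2 and 28 at 7 genes without replicate 1. Shares of all genes under the 10-kb, stricter-pairing and single-library settings are not given here. Those counts of Irf genes therefore stand without a comparison. Strings within 50 bp of the summit made 14 pairs of string and window, against 28. Of 93 alternative values 67 stayed within 1.5 times the reported value and 26 did not, 15 of these for single strings, and no direction was at issue. No paired analysis was possible because the labels number no replicates and no groups were compared. A peak in 1 list alone, as at the Irf2 and Irf4 promoters, cannot be told from binding just under the limit of the other list, since the fewest fragments called were 9 and 7.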
